A study of Mus musculus with 8 samples.

Results

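Apoptosis and neuron survival genes were compared between the olfactory mucosae of Lhx2 conditional knockout mice and those of littermate controls. The members were chosen by symbol alone: every caspase with a number, every gene whose symbol starts with Bcl2 or Birc (except Birc5), and 22 further genes listed by name, which run from the death receptor Fas to the caspase inhibitor Xiap. The array measures transcript clusters, each of which combines the probes along the exons of a gene. Of the 35557 clusters in the table, 23410 carried a gene symbol and were tested, and 47 of these belonged to the set. They stood for 42 genes, because Birc2, Cflar and Cycs had several clusters each. Of the 22 genes listed by name, 2 were not analysed here. A further 3 clusters that match several Bcl2a1 symbols at once were left out.

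Apoptosis is the ordered self-destruction of a cell. Signals reach it by 2 routes. In the death receptor route, ligand-bound receptors such as Fas recruit Fadd and activate the initiator Casp8. In the mitochondrial route, BH3-only proteins block the survival proteins related to Bcl2, pore-forming effectors then open the outer mitochondrial membrane, and released cytochrome c assembles with Apaf1 to activate Casp9. Both routes end in executioner caspases, which the inhibitor of apoptosis proteins restrain. Olfactory sensory neurons (OSNs), the odorant-detecting neurons of the nasal epithelium, are lost and replaced from basal progenitors throughout life, and much of this loss is apoptotic.

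All 8 mice were 26 days old, on a mixed 129 x C57BL/6J background, and each gave 1 array of whole olfactory mucosa. The 4 knockouts were OmpCre:Lhx2(fl/fl). Of the 4 controls, 3 were OmpCre:Lhx2(fl/+), and control replicate 1 was Lhx2(fl/+) without Cre, so every mouse carried at least 1 floxed Lhx2 allele. OmpCre is Cre recombinase expressed from the locus of Omp, a gene of mature OSNs, so other cells of the mucosa keep Lhx2, and according to the study recombination did not reach every OSN. The mucosa was not sorted. In such bulk tissue, fewer cells of a type and less RNA per cell cannot be told apart. Each sample title is a mouse number whose first digit is 5, 7 or 9, and the differences within these 3 title series (2, 1 and 1 mice per group) are given as a possible batch.

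Lhx2, the targeted LIM homeodomain factor, had log2 values of 12.39, 12.33, 12.29 and 12.33 in controls 1 to 4 and 12.03, 11.99, 12.17 and 12.16 in knockouts 1 to 4. All 4 knockouts lay below all 4 controls. The difference was -0.25 ± 0.06 (log2, SE, n = 4 and 4; limma adjusted p = 0.0383), and the cluster combines probes of the whole gene. This call was lost under 10 of 18 alternatives, among them 7 of the 8 fits that left out an array (adjusted p up to 0.13). Relative to the mean of mature OSN markers, which is not among those 10, Lhx2 was called in the opposite direction (0.36). Omp itself had values of 13.78, 13.56, 13.22 and 13.27 in controls and 12.88, 12.80, 12.37 and 12.43 in knockouts. The groups did not overlap, and Omp fell by 0.84 ± 0.15 (limma adjusted p = 0.00568). Of 16 measured mature OSN markers 15 were called lower, and Umodl1 differed by -0.11 without a call. The mean of the 16 per array was 12.42 to 12.44 in controls against 11.77 to 11.86 in knockouts. The difference of these means was -0.61 (exact two-sided permutation test, p = 0.0286, the smallest that 4 against 4 arrays allow; adjusted p = 0.314 over 11 marker lists). Mean differences of the other 10 marker lists ran from -0.12 for glands and respiratory epithelium to 0.21 for cell division, with 0.8 as the highest and 0.0571 as the lowest exact permutation p.

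Promoter sequences are shown for Hrk and Faim, which moved in opposite directions in the knockouts, as the stretch of 250 bases that ends just before each annotated start (RefSeq, GRCm38.p6). Faim2, the member with the largest change, had no sequence among the promoters searched and is not in the counts below. Hrk lies at chr5:118169514-118169763 and Faim at chr9:98986123-98986372, both on the plus strand. Capitals mark TAATTA, a core letter pattern of homeodomain sites, and CCCNNGGG, the pattern of sites for Ebf factors. Each pattern reads alike on both strands.
Hrk: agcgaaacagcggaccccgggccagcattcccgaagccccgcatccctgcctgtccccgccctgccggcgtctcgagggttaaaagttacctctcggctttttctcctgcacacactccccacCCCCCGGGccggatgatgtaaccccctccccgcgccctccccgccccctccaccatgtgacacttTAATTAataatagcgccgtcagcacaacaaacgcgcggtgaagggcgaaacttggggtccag
Faim: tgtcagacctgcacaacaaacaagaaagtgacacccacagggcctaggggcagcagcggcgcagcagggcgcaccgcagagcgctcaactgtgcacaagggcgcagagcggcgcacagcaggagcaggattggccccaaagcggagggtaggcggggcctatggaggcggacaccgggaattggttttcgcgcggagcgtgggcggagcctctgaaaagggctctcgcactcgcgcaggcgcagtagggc
In the Hrk window TAATTA starts 62 bases and CCCNNGGG 127 bases before the start, and the Faim window holds neither pattern. Over the 51 promoters that matched 38 of the 42 genes, TAATTA stood in 1 (1.96%), against 4.84% of all 32851 promoters searched. CCCNNGGG stood in 7 (13.7%), those of Bbc3, Bcl2, Bcl2l1, Bid, Cycs, Fas and Hrk, against 11.8% of all. These matches describe letters in the window.

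Of the 47 clusters, 2 were called lower in the knockouts, those of Faim2 and Faim, and 1 was called higher, that of Hrk (limma, Benjamini-Hochberg adjusted p under 0.05 over all tested clusters). Clusters called lower made up 4.26% of the set, against 6.29% of all tested clusters and 2.28% of those that are neither odorant receptors nor trace amine-associated receptors. The 1 called higher made up 2.13% of the set, against 2.1% of all tested clusters and 2.21% of the non-receptor ones. Taking both directions, 6.38% of the set was called, against 8.39% and 4.49%. The set thus held about as many changed clusters as the background. With each array centred on its median, which moved the median difference of all tested clusters to 0.11, 2 clusters of the set were lower and 4 higher, the latter being Hrk, Casp4, Casp8 and Casp12 (12.8% of the set, against 10.1% of all tested clusters). Over all tested clusters the split was then 1342 lower and 1028 higher, against 1473 and 492 as deposited. In the values as deposited, to which the rest of this paragraph refers, the set had a median difference of 0.06, beside 0.05 over all tested clusters. Of the set, 33 clusters had a positive and 14 a negative difference. Negative differences made up 29.8% of the set, 33.4% of all tested clusters and 30.1% of the non-receptor ones. Groups did not overlap for 3 clusters lower in the knockouts (6.38%, against 7.83% of all tested clusters and 3.83% of the non-receptor ones) and for 5 clusters higher in them (10.6%, against 6.42% and 6.75%). At an unadjusted p under 0.05, 4 clusters were lower (8.51%, against 8.87% and 4.63%) and 7 were higher (14.9%, against 9.3% and 9.75%). The differences of the 44 clusters that were not called ran from -0.54 to 0.40, and for 40 of them the whole 95% interval lay within 0.5 of 0. The SD within a group of 4 had a median of 0.0996 over the set and reached 0.34.

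**Figure D1:**
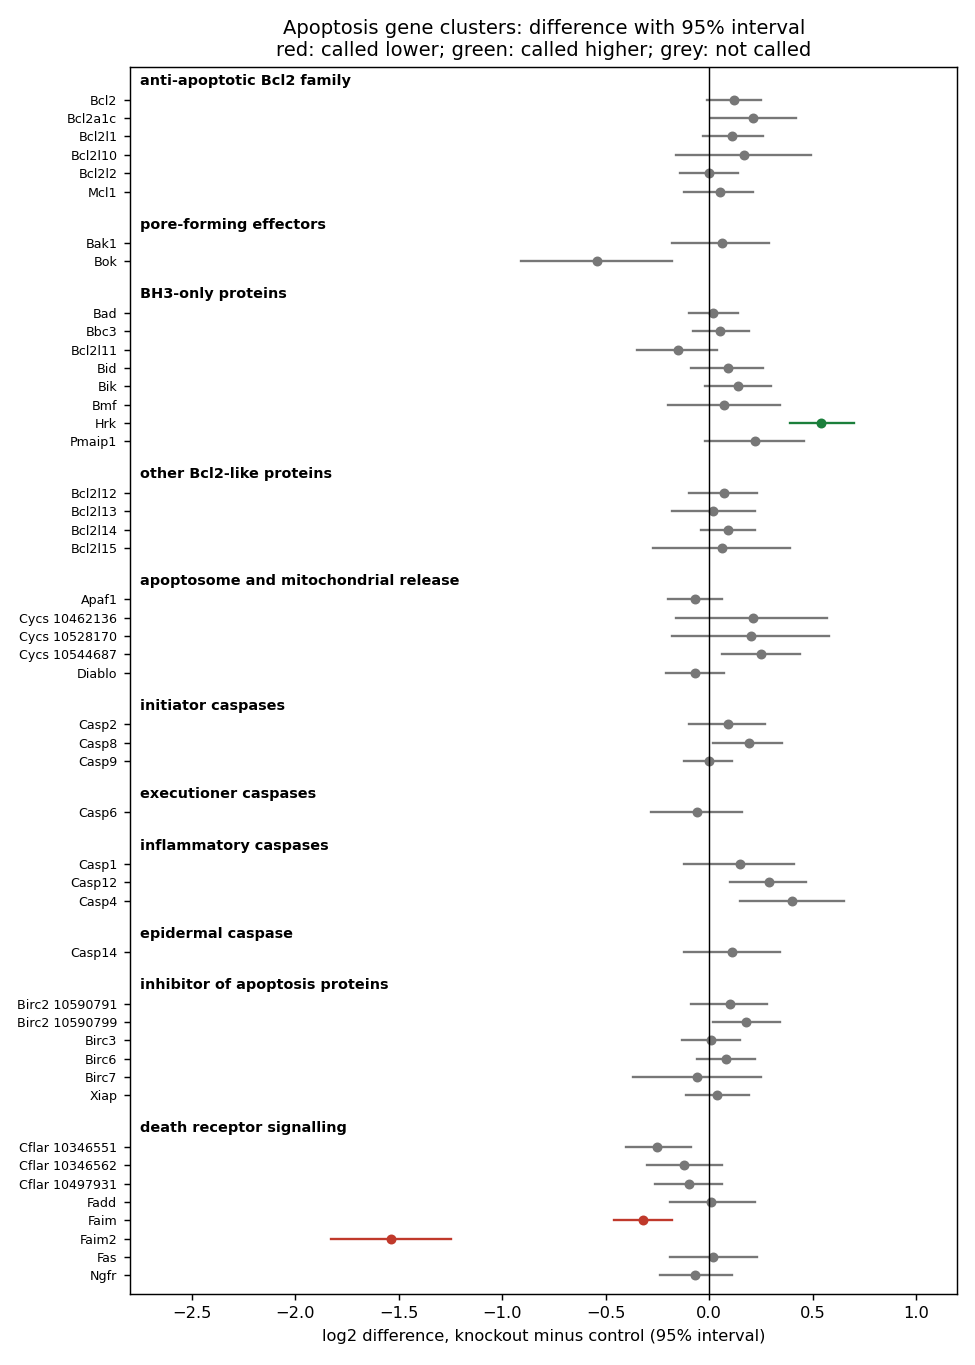
Log2 difference, knockout minus control (x axis), of each of the 47 transcript clusters, grouped by role; points are limma estimates from 4 and 4 arrays and lines their 95% intervals. Faim2 stands apart at -1.54, Faim at -0.32 and Hrk at 0.54 are the other called clusters, and most of the rest lie close to 0.

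Faim2, a neuronal membrane protein that protects cells from Fas-triggered death, showed the largest change of the set and is encoded on chromosome 15. Its log2 values were 12.83, 12.88, 12.54 and 12.70 in controls and 11.38, 11.46, 11.04 and 10.90 in knockouts. Even the highest knockout lay far below the lowest control. The signal fell by 1.54 ± 0.13 (95% interval -1.83 to -1.25; limma adjusted p = 3.15e-05), a decrease of 65.6%. The differences within title series 5, 7 and 9 were -1.43, -1.50 and -1.80, so the decrease was present in each. Among 20741 clusters with 1 symbol that is not a receptor, only 10 others in this comparison had a larger decrease. It also exceeded the decrease of 15 of the 16 mature OSN markers, Cnga4 with -2.02 being the exception. Because those markers were lower as well, Faim2 was also set against them: its value minus the marker mean of the array was 0.39, 0.44, 0.12 and 0.27 in controls and -0.47, -0.38, -0.73 and -0.92 in knockouts. The groups were again fully separate, with a difference of -0.93 ± 0.12 (limma adjusted p = 4.24e-05). Faim2 mRNA therefore decreased more than the mean of the mature OSN markers.

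Faim, a soluble protein named for its inhibition of Fas-triggered death, shares part of its name with Faim2 but belongs to another protein family. It had values of 10.58, 10.65, 10.52 and 10.49 in controls and 10.27, 10.21, 10.32 and 10.18 in knockouts. The groups did not overlap, although the gap between them was small. Faim fell by 0.32 ± 0.06 (limma adjusted p = 0.00811), a decrease of 19.8%, and the differences within title series 5, 7 and 9 were -0.38, -0.21 and -0.32. Of the 16 mature OSN markers, 3 had a smaller decrease than Faim. Relative to the marker mean Faim was higher by 0.29 ± 0.07 (limma adjusted p = 0.00161), a sign that rests on this choice of markers, since it depends on how far they fell.

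The other genes of the death receptor route gave no call. Fas, the receptor itself, differed by 0.02 ± 0.09, and Fadd, its adaptor, by 0.01 ± 0.09. Ngfr, the neurotrophin receptor p75 with a death domain of its own, had values of 8.23, 8.09, 8.06 and 8.23 in controls and 7.93, 8.17, 8.21 and 8.04 in knockouts. The groups overlapped, with a difference of -0.07 ± 0.08 (limma adjusted p = 0.729). Cflar, the Casp8-like inhibitor that blocks the receptor complex, was measured by 3 clusters. In cluster 10346551 the values were 8.69, 8.77, 8.79 and 8.60 in controls and 8.54, 8.54, 8.44 and 8.35 in knockouts. Every knockout was below every control in this cluster, yet the difference of -0.25 ± 0.07 was not called (limma adjusted p = 0.0629). It was called without control replicate 4 (-0.29, adjusted p = 0.04) and in the fit with title series as a block (adjusted p = 0.0187). The other clusters of Cflar differed by -0.12 ± 0.08 and -0.10 ± 0.07. The cluster of -0.10 has a number whose neighbours lie on chromosome 3, whereas Cflar is on chromosome 1, so its assignment is uncertain. Values by array for Cflar, and below for Bok, Casp4 and Cycs, are shown because of their size and were chosen after they were seen.

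**Figure D2:**
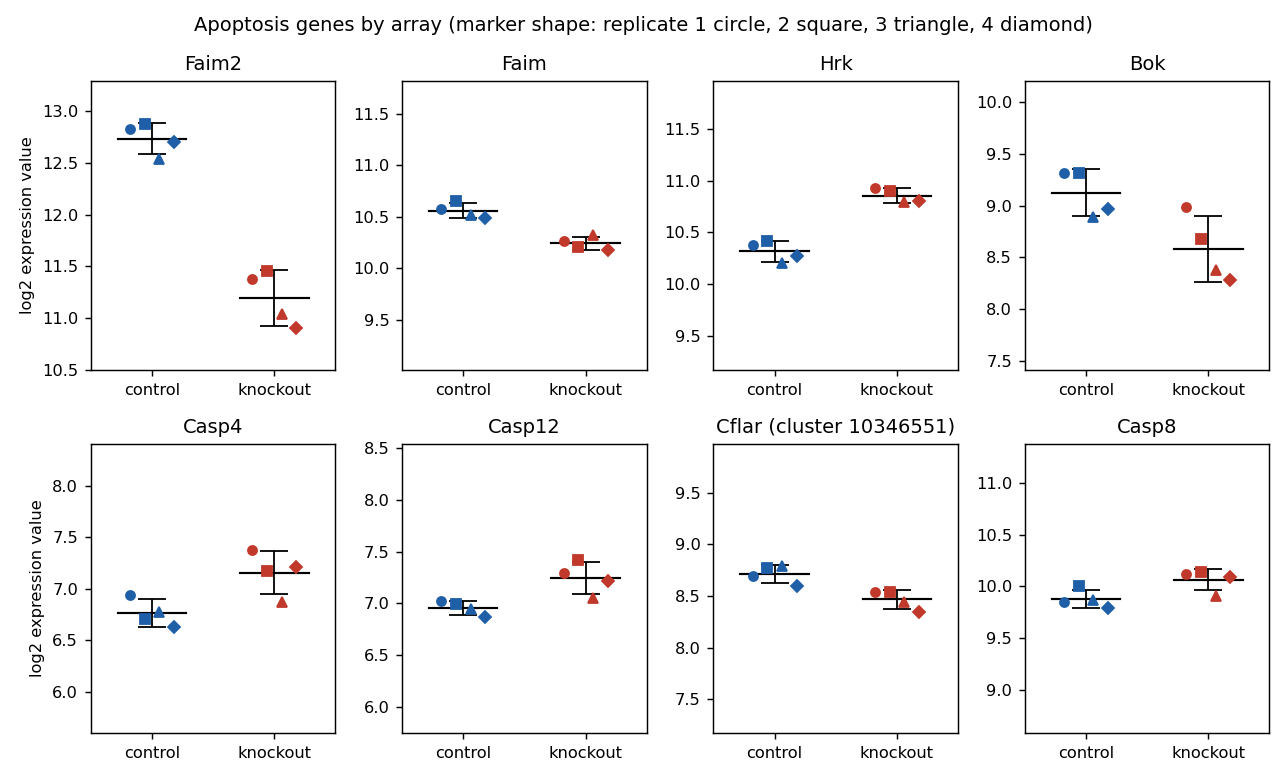
Log2 value (y axis) on each of the 8 arrays for Faim2, Faim, Hrk, Bok, Casp4, Casp12, Cflar (cluster 10346551) and Casp8, with the mean and SD of each group of 4. Knockouts lie wholly below controls for Faim2, Faim and Cflar and wholly above them for Hrk and Casp12, while the groups overlap for Bok, Casp4 and Casp8.

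Among the 8 BH3-only genes, Hrk alone was called. Hrk (harakiri) is a neuronally expressed BH3-only protein that binds Bcl2 and Bcl2l1 and is known for its induction in neurons deprived of trophic support. Its values were 10.38, 10.42, 10.20 and 10.27 in controls and 10.93, 10.90, 10.79 and 10.80 in knockouts. Every knockout exceeded every control by more than the spread within either group. Hrk rose by 0.54 ± 0.07 (95% interval 0.39 to 0.70; limma adjusted p = 0.000546), an increase of 45.5%. The differences within title series 5, 7 and 9 were 0.52, 0.59 and 0.54. It ranked 152 among the increases of the 20741 non-receptor clusters. Relative to the mature OSN marker mean the difference was 1.15 ± 0.06 (limma adjusted p = 4.85e-06). On that scale the median of all tested clusters was itself 0.66, so Hrk lay above it. The immature OSN marker mean, 11.46 to 11.50 in controls and 11.39 to 11.56 in knockouts, overlapped between the groups (exact permutation p = 0.8). Of its 13 markers, 2 were called lower and 1 higher. The cell division mean was 8.91 to 9.13 in controls and 9.10 to 9.30 in knockouts, and its part in the Hrk result was not tested.

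The remaining BH3-only genes lay between -0.15 and 0.22. Bcl2l11 (Bim), a BH3-only protein that binds all the survival proteins, differed by -0.15 ± 0.09 (limma adjusted p = 0.402). Pmaip1 (Noxa), a partner of Mcl1, differed by 0.22 ± 0.11 (limma adjusted p = 0.329), Bik by 0.14 ± 0.07 and Bid, which links the receptor route to the mitochondria, by 0.09 ± 0.08. Bmf, Bbc3 (Puma) and Bad were nearer to 0, with 0.07 ± 0.12, 0.05 ± 0.06 and 0.02 ± 0.05. Bad values kept within 8.34 to 8.41 over all 8 arrays.

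Of the pore-forming proteins, Bok had values of 9.32, 9.32, 8.89 and 8.97 in controls and 8.99, 8.68, 8.38 and 8.28 in knockouts. Knockout replicate 1 reached the range of the controls, and the values were higher in title series 5 than in the others in both groups. The difference of -0.54 ± 0.16 was not called (limma adjusted p = 0.0797). With title series as a block it was (adjusted p = 0.00319), the differences within series 5, 7 and 9 being -0.49, -0.51 and -0.69, and it was also called without knockout replicate 1 (-0.68, adjusted p = 0.0169). Against the marker mean of mature OSNs, Bok differed by 0.06 ± 0.15 (limma adjusted p = 0.685). Bak1 had values of 8.54, 8.71, 8.58 and 8.27 in controls and 8.62, 8.70, 8.37 and 8.65 in knockouts. The groups overlapped fully, and the difference was 0.06 ± 0.10 (95% interval -0.18 to 0.29).

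None of the 6 survival genes of the Bcl2 family was called. Bcl2, the founding member, had values of 11.08, 11.11, 11.04 and 11.13 in controls and 11.15, 11.27, 11.16 and 11.26 in knockouts. Each knockout lay above each control, but by little, and the difference of 0.12 ± 0.06 did not pass (limma adjusted p = 0.328). Bcl2l1, which encodes the neuronal survival protein Bcl-xL, had values of 10.17, 10.24, 10.09 and 10.04 in controls and 10.25, 10.25, 10.33 and 10.17 in knockouts. These ranges overlapped, with a difference of 0.11 ± 0.07 (95% interval -0.03 to 0.26). Mcl1, a short-lived survival protein, had values of 10.98, 11.08, 10.84 and 10.95 in controls and 11.10, 11.00, 10.88 and 11.06 in knockouts. Its difference was 0.05 ± 0.07 (95% interval -0.12 to 0.21). Bcl2l2 (Bcl-w) differed by 0.00 ± 0.06, and the dim clusters of Bcl2a1c and Bcl2l10 by 0.21 ± 0.09 and 0.17 ± 0.14. Bcl2a1c has near-identical relatives, so its probes may not separate them. The 4 other Bcl2-like genes (Bcl2l12 to Bcl2l15) differed by 0.02 to 0.09.

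Downstream of the mitochondria, Apaf1, the scaffold of the apoptosome, had values of 8.87, 8.88, 8.81 and 8.74 in controls and 8.74, 8.71, 8.80 and 8.78 in knockouts. The groups overlapped (-0.07 ± 0.06; 95% interval -0.20 to 0.06). Diablo (Smac), which relieves caspases of their inhibitors, also differed by -0.07 ± 0.06. Cycs, the gene of cytochrome c, was measured by 3 clusters, and neighbouring cluster numbers place only cluster 10544687 on its own chromosome 6. In that cluster the values were 6.88, 6.90, 6.70 and 6.82 in controls and 6.93, 6.95, 7.19 and 7.23 in knockouts. The groups were separate, but the difference of 0.25 ± 0.09 was not called (limma adjusted p = 0.141). The other clusters of Cycs differed by 0.21 ± 0.16 and 0.20 ± 0.17, and cytochrome c has processed copies elsewhere in the genome, so these values are uncertain.

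No caspase was called. Among the initiators, Casp9 of the apoptosome was nearly constant, with values of 9.31, 9.36, 9.31 and 9.34 in controls and 9.32, 9.33, 9.32 and 9.35 in knockouts. Its difference was 0.00 ± 0.05, with a 95% interval from -0.12 to 0.11. Casp8 of the receptor route had values of 9.85, 10.00, 9.87 and 9.79 in controls and 10.12, 10.14, 9.91 and 10.09 in knockouts. Of the knockouts, 3 lay above every control and knockout replicate 3 within their range, and the difference of 0.19 ± 0.07 did not pass (limma adjusted p = 0.212). Casp2 differed by 0.09 ± 0.08. Casp6, an executioner also known for axon pruning, differed by -0.06 ± 0.10 (95% interval -0.28 to 0.16), and the epidermal Casp14 by 0.11 ± 0.10.

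The inflammatory caspases, which lie together on chromosome 9 and cut cytokine precursors and gasdermins, had the highest median of the groups, 0.29. Casp4 had values of 6.94, 6.71, 6.78 and 6.63 in controls and 7.38, 7.17, 6.87 and 7.21 in knockouts. Only knockout replicate 3 fell within the control range, and the difference of 0.40 ± 0.11 narrowly missed the threshold (limma adjusted p = 0.0577). Casp12, an endoplasmic reticulum caspase, had values of 7.02, 6.99, 6.94 and 6.87 in controls and 7.29, 7.42, 7.05 and 7.22 in knockouts. Here the groups were separate, but the difference of 0.29 ± 0.08 was not called (limma adjusted p = 0.0665). Casp1 differed by 0.15 ± 0.12. Without control replicate 1 Casp4 passed (0.46, adjusted p = 0.0499). Without knockout replicate 3, both Casp4 (0.49, adjusted p = 0.00878) and Casp12 (0.35, adjusted p = 0.0178) passed, and with title series as a block both passed as well (adjusted p = 0.0385 and 0.0223). Marker means of immune cells, which express these caspases, overlapped between the groups. The macrophage marker mean was 8.05 to 8.25 in controls and 8.04 to 8.30 in knockouts, with 0 of 13 markers called. The neutrophil mean was 7.97 to 8.52 and 8.19 to 8.36 (0 of 10 called), and the lymphocyte mean 6.90 to 6.99 and 6.95 to 7.17, where Cd3g was called higher by 0.29 ± 0.07. Their part in the caspase values was not tested.

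The inhibitor of apoptosis proteins, which bind and restrain active caspases, did not pass the test in any of their 6 clusters. Xiap, the most direct caspase inhibitor among them, had values of 9.66, 9.60, 9.69 and 9.54 in controls and 9.73, 9.65, 9.53 and 9.73 in knockouts. The groups overlapped, with a difference of 0.04 ± 0.07 (95% interval -0.11 to 0.19). The 2 clusters of Birc2, a ubiquitin ligase of the tumour necrosis factor receptor complex, differed by 0.10 ± 0.08 and 0.18 ± 0.07. Birc3 (0.01 ± 0.06), Birc6 (0.08 ± 0.06) and Birc7 (-0.06 ± 0.14) were all close to 0.

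Because the 16 chosen mature OSN markers were lower on average, every cluster was also expressed relative to their mean. The differences of these markers ran from -2.02 for Cnga4 to -0.11 for Umodl1, and they include Omp, the Cre locus. For a larger list of mature OSN mRNAs, the study reports only a small average reduction in these mutants. All tested clusters then shifted to a median of 0.66, and 96.7% of them were called. On this scale 45 of the 47 clusters were called higher and Faim2 alone was called lower, with Bok left uncalled at 0.06. The median of the set was 0.67, next to the 0.66 of all tested clusters. Faim2 thus lay on the far side of the marker mean from every other cluster of the set, Bok at 0.06 lay close to it, Faim at 0.29 lay between it and the bulk of genes, and Hrk at 1.15 lay beyond them. The markers' own level set this scale, and no cell count entered it.

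**Figure D3:**
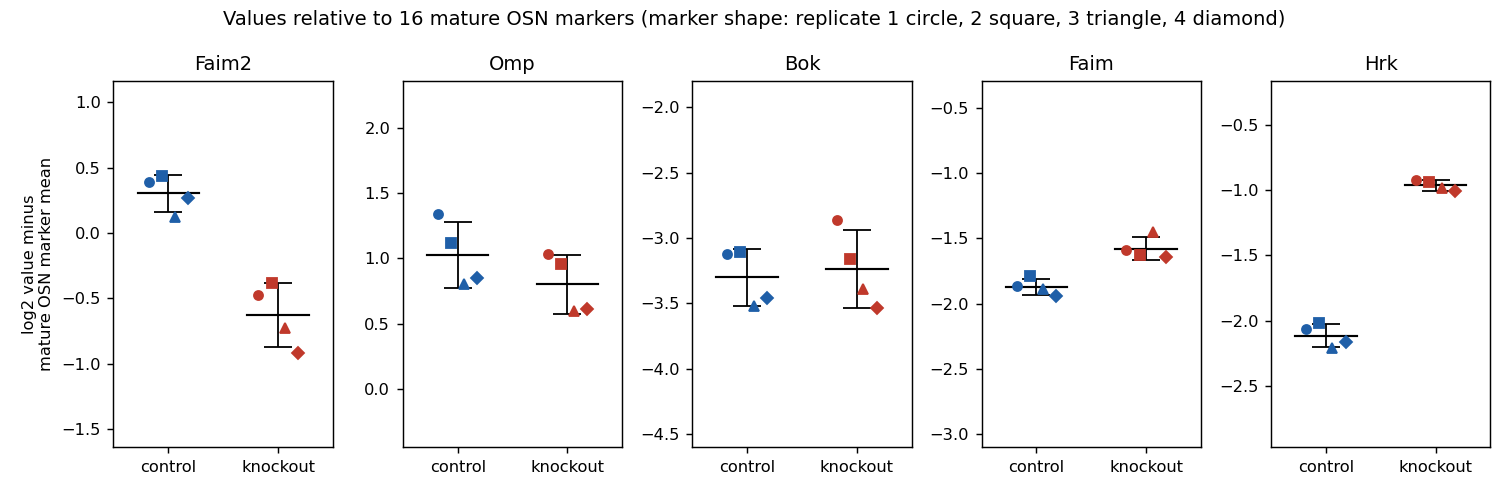
Log2 value minus the mean of 16 mature OSN markers on the same array (y axis) for Faim2, Omp, Bok, Faim and Hrk; symbols are the 8 arrays, bars the mean and SD of each group of 4. Only Faim2 has its knockouts below all its controls, Bok overlaps, and Faim and Hrk have their knockouts above all controls.

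Genes around the pathway were taken from 8 further lists with 139 genes measured, of which 7 were called lower and 4 higher, together 7.91% against 8.39% of all tested clusters and 4.49% of the non-receptor ones. Relative to the mature OSN marker mean, a scale on which the median of all tested clusters was 0.66, only Mfge8 of the 7 was still called lower (-0.26, limma adjusted p = 0.036). None of the 12 death receptors and ligands was called, and their median was 0.01. Of 21 mitochondrial and execution factors, Tmbim6 (Bax inhibitor-1) fell by 0.50 ± 0.08 (limma adjusted p = 0.00159), but relative to the mature OSN marker mean it differed by 0.11 (adjusted p = 0.146). It belongs to the same protein family as Faim2, of which the list also held Tmbim1 (0.09 ± 0.11) and Ghitm (0.05 ± 0.06). Grina and Tmbim4 of this family, looked up after these values were seen, differed by 0.03 ± 0.06 and 0.04 ± 0.06. In that list Bnip3, a mitochondrial protein of mitophagy induced by hypoxia, rose by 0.35 ± 0.07 in cluster 10414269, whose neighbouring cluster numbers lie on chromosome 14 and not on chromosome 7 of Bnip3, so that its assignment is uncertain. Its other cluster, 10568785, was also called higher, by 0.31 ± 0.07 (limma adjusted p = 0.0164). The list median was 0.05. Of 17 DNA damage response genes, Trp53inp1, a stress-induced nuclear protein, rose by 0.26 ± 0.07 (limma adjusted p = 0.0443), and the median was 0.05.

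Of 24 neurotrophin and survival factor genes, 1 was called in each direction. Gfra1, the receptor for glial cell line-derived neurotrophic factor, rose by 0.80 ± 0.10 (limma adjusted p = 0.00053), while its partner Ret differed by 0.23 ± 0.10 and its ligand Gdnf by 0.13 ± 0.10, neither of them called. Akt2, a survival kinase, fell by 0.38 ± 0.05 (limma adjusted p = 0.000789), while Akt1 differed by -0.02 ± 0.11. The list median was 0.02. Endoplasmic reticulum stress genes had the lowest median of the 8 lists, -0.14. Of the 16, 3 were called lower (18.8%, against 6.29% of all tested and 2.28% of non-receptor clusters) and 0 higher. These were Ppp1r15a, a phosphatase subunit that restarts translation after stress, by -0.54 ± 0.09, Atf5, a transcription factor of the stress response, by -0.43 ± 0.06 and the chaperone Dnajb9 by -0.40 ± 0.08. Relative to the mature OSN marker mean the 3 genes differed by 0.07, 0.18 and 0.21, so none was lower on that scale. All 3 still lay below the median of all tested clusters there, 0.66. Ddit3 (CHOP), the death-promoting factor of this response, differed by -0.27 ± 0.13 and was not called (limma adjusted p = 0.316).

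No gene of the 17 in the JNK pathway and axon degeneration list was called, and the median was -0.08. Of 15 necroptosis and pyroptosis genes, Il18, a cytokine matured by inflammatory caspases, fell by 0.50 ± 0.07 (limma adjusted p = 0.00118). The list median was 0.10, and 9 of its genes were among the dimmest tested clusters. Of 17 genes for the clearance of dying cells, Mfge8, a secreted bridge between phosphatidylserine and phagocytes, fell by 0.86 ± 0.11 (limma adjusted p = 0.000539). Adgrb1 (Bai1), a phosphatidylserine receptor, rose by 0.43 ± 0.09 (limma adjusted p = 0.0182), and the list median was 0.05. The 15 others of that list were not called.

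**Figure D4:**
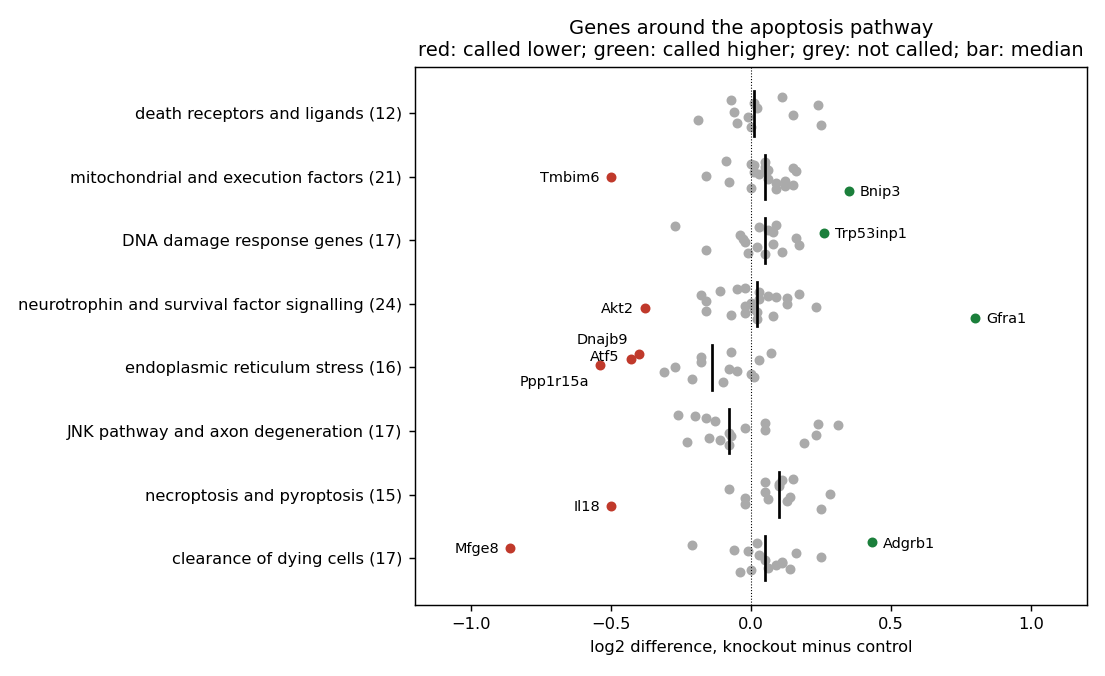
Log2 difference, knockout minus control (x axis), of each gene of the 8 lists around the apoptosis pathway, with the number of genes measured in parentheses; bars are list medians and colours mark called genes. The named genes are the 7 called lower and the 4 called higher, and all list medians lie between -0.14 and 0.10.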

How the data were processed

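Olfactory mucosae of 8 mice were measured on Affymetrix Mouse Gene 1.0 ST arrays, 1 per mouse, from equal amounts of total RNA. Expression was deposited on a log2 scale, as made by the authors with Affymetrix Expression Console. Its version and settings for background and summarisation are not given in the sources used. They ran from 2.35 to 14.6 and were used without rescaling.

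Symbols came from the platform annotation, checked through Entrez IDs against RefSeq genes (21698 of 21789 clusters with 1 symbol matched). The 23410 clusters with a symbol were fitted in R 4.3.3 with limma 3.58.1 (lmFit, eBayes), knockout minus control and without covariates, and p-values were adjusted over all of them by the Benjamini-Hochberg method. A cluster was called at an adjusted p under 0.05. The study's methods used t-tests, which were run as an alternative. Errors after ± are standard errors, and intervals are at the 95% level. The script was tested on simulated data. Arrays give no counts, so their number limits the precision.

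Groups followed the phenotype labels, and replicate numbers only name a mouse. Which mice shared a litter is not stated in these sources. Values by array were given for called genes, for genes with separate groups and a difference of at least 0.25, and for Lhx2, Omp and 14 genes listed by name, where measured. Up to 4 called genes per pathway list were named. The members and lists were chosen with earlier results of these data known. Alternatives covered scaling, title series, array weights, variance model, filters, the features tested and each array left out in turn.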

Additional observations from a re-analysis of the deposited data

Results flagged for a closer look

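On 5 occasions a single array stood apart from the other 3 of its group by Dixon's criterion, out of 98 groups of 4 tested (5.1%). Chance alone gives about 1 in 20. Bcl2l12 had 8.20 in control replicate 4 against 7.99 to 8.01 in the other controls. Casp14 had 5.78 in that array too, against 5.32 to 5.39. In control replicate 3, Birc6 had 11.47 against 11.29 to 11.32, and Fas had 6.66 against 6.40 to 6.42. Among the knockouts, Casp2 had 9.98 in replicate 3 against 9.74 to 9.78. None of these 5 genes was called between the groups.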

How the results depend on the processing

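Faim2, Faim and Hrk were called under all 18 alternatives. Faim2 ran from -1.63 to -0.93 and Hrk from 0.50 to 1.15, while Faim ran from -0.35 to -0.26 except relative to the mature OSN markers, where it turned to 0.29. Of the set, 2 clusters were called lower and 1 higher. These became 1 and 45 relative to the mature OSN markers, 4 and 3 in the fit blocked by title series, and 4 and 2 under array weights. Relative to those markers the called share was 97.9% of the set, against 96.7% of all tested clusters. It was 14.9% against 11.5% with the block, and 12.8% against 12% under array weights. With arrays centred on their median 4 were higher, and without the dimmest clusters 2 were. In the latter fit 13.2% of the set was called, against 10.3% of all clusters tested in it. Leaving out 1 array gave 2 to 3 lower and 1 to 3 higher, with 2 higher without control replicate 1 and 3 without knockout replicate 3. Those 2 fits called 8.51% and 10.6% of the set, against 6.87% and 7.8% of all tested clusters. Over all tested clusters, 1473 lower became 766 relative to the mature OSN markers and 422 without receptor clusters (an alternative chosen after seeing the data). The 492 higher became 1028 with median centring, 21879 relative to the mature OSN markers, 975 with the title series block, 1086 with array weights and 774 with the methods' t-test at an unadjusted p under 0.01. Leaving out 1 array gave 1302 to 1421 lower and 304 to 563 higher, the latter being 304 without control replicate 1 and 318 without knockout replicate 4. Pathway genes called lower numbered 1 relative to the mature OSN markers, 14 with the block, 11 with array weights and 11 with the methods' t-test at the unadjusted threshold, against 7. Those called higher numbered 135, 7 and 7 in the first 3 of these and 2 with the methods' t-test after adjustment, against 4, and leaving out 1 array gave 7 to 8 lower and 2 to 5 higher, with 2 higher without control replicate 1, knockout replicate 1 or knockout replicate 4.

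Lhx2 passed under 8 of 18 alternatives, counting the mature OSN marker scale, where it was called higher and not lower. It missed with median centring (-0.19), in the whole table and without receptors (both -0.25), and in all but 1 of the fits that left out an array (-0.28 to -0.22), and it turned to 0.36 relative to the mature OSN markers. Within title series 5, 7 and 9 it was -0.36, -0.12 and -0.17. Omp missed relative to those markers (-0.23) and by the methods' t-test (-0.84), and kept -0.92 to -0.73 with an array left out. Relative to the mature OSN markers, signs also turned for Bok (0.06), Apaf1 (0.54), Casp9 (0.61), Cflar (0.36, 0.49 and 0.51) and Ngfr (0.54). Bak1 turned to -0.03 without control replicate 4, as arrays were left out (-0.03 to 0.13). Casp9, at 0.00, turned to 0.06 with median centring, 0.03 with quantile normalization, 0.01 with array weights, and lay between -0.01 and 0.01 with an array left out. The cause of these shifts was not tested. No paired analysis was possible because the labels carry no replicate number or litter that pairs mice across groups. The block by title series, given above, stands in for it only as far as the titles go. The arrays' number and the signal of the 10 clusters in the dimmest range limit what could be detected.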
